A study of Homo sapiens with 3 samples.

Results

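The mitochondrial ribosome is the machine that translates the few messenger RNAs encoded by mitochondrial DNA, all of which code for subunits of oxidative phosphorylation. Its proteins are encoded in the nucleus, made in the cytosol and imported, so their supply starts at nuclear promoters. Many of these promoters lack a TATA box, and several lie head to head with the promoter of another gene. The genes examined here were the protein-coding genes of GENCODE 44 whose symbol starts with MRPL or MRPS followed by a digit. There were 78 such genes among 19689 protein-coding genes, 49 with an MRPL symbol (large subunit) and 29 with an MRPS symbol (small subunit).

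To see where SBNO1 and TAF4 sit on chromatin, chromatin immunoprecipitation followed by sequencing (ChIP-seq) had been carried out in HuCCT1, a human cholangiocarcinoma cell line spelled HUCCT1 in the labels, for which no treatment was given. SBNO1 (Strawberry Notch 1) is a helicase-like nuclear protein, and TAF4 is a subunit of TFIID, the general transcription factor that recognizes core promoters. There were 3 libraries, 1 each for the SBNO1 antibody, the TAF4 antibody and control IgG, and each was pooled from several biological replicates before sequencing, so that no replicate error was available. The lists held 16147 SBNO1, 12763 TAF4 and 1598 IgG peaks without read counts, and the depth of the libraries is unknown. A gene was counted as having a promoter peak when a peak edge lay within 1 kb of any transcription start site (TSS) of a protein-coding transcript of that gene, so that a single peak could count for several genes. The ranges in parentheses behind shares are exact 95% Clopper-Pearson intervals and cover counting error only. No difference was tested, since each antibody had 1 library and genes are not replicates of a condition.

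Of the 78 genes, 29 had a divergent partner, which is a protein-coding gene on the opposite strand whose TSS lay up to 1 kb upstream of a TSS of the member. The stretches of genome between both TSS are shown for 8 of these pairs, because a single peak there reaches the promoters of 2 genes. They are read 5′ to 3′ on the strand of the ribosomal protein gene from GRCh38, and capitals mark every motif match on either strand. The letters searched were CCGGAA for ETS factors and GCGCANGCG for NRF1. For YY1 they were ATGGCGGC, for factors of the SP and KLF families (SP/KLF) GGGCGG, and for NFY they were CCAAT. The TATA box was searched as TATAAA. For AP-1 the letters were TGANTCA. The first 3 stretches belong to genes with peaks of both proteins that were among the highest-scoring of their subunit, namely MRPL32 with the read-through gene ENSG00000256646, MRPL47 with NDUFB5, and MRPS18C with HELQ.
MRPL32, chr7:42932215-42932375, strand plus: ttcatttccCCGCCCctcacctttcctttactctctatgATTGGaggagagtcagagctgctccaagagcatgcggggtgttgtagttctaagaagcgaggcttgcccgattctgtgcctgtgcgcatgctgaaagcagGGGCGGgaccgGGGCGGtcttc
MRPL47, chr3:179604650-179604786, strand minus: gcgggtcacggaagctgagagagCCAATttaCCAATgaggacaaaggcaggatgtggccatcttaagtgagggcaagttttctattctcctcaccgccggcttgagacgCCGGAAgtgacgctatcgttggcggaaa
MRPS18C, chr4:83455824-83455982, strand plus: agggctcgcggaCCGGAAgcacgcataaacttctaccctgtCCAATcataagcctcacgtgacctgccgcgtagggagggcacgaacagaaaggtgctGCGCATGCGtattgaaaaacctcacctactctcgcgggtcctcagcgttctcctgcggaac
The next stretch, between MRPL51 and NCAPD2, also lay under an IgG peak.
MRPL51, chr12:6493296-6493386, strand minus: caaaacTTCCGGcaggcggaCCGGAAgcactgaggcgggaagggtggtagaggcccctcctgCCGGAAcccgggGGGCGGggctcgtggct
The last 4 lie between pairs without an SBNO1 or TAF4 peak at either gene, which were MRPL14 with TMEM63B, MRPL43 with TWNK, MRPL52 with SLC7A7, and MRPS2 with PIERCE1.
MRPL14, chr6:44127453-44127553, strand minus: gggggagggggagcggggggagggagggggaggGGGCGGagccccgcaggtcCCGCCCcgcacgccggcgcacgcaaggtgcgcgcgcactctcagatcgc
MRPL43, chr10:100987516-100987535, strand minus: cgggagcggtcgtcCCGGAA
MRPL52, chr14:22829821-22829882, strand plus: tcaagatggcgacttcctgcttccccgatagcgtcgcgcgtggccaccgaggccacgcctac
MRPS2, chr9:135499870-135499983, strand plus: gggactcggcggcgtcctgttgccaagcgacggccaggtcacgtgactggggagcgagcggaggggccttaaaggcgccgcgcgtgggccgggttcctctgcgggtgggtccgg
The MRPL51 stretch held 3 ETS matches and the MRPL47 and MRPS18C stretches 1 each, whereas the MRPL32 stretch held none. Among the pairs without peaks, the 20 bases between MRPL43 and TWNK held 1 ETS match, and no motif was found between MRPL52 and SLC7A7 or between MRPS2 and PIERCE1. The 8 stretches do not stand for all pairs. Among pairs with both peaks that are not shown, the MRPL10 and MRPL30 stretches held 1 ETS match each. Those of MRPL2, MRPL37, MRPL49, MRPL50, MRPL57, MRPS7 and MRPS12 held matches of other motifs only. No motif was found in those of MRPL9, MRPL21, MRPL27, MRPL36 and MRPS27.

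First, promoter peaks were counted by library. An SBNO1 peak was present at 53 of the 78 genes (67.9%, 56.4% to 78.1%), while 25.7% of all protein-coding genes had one. For TAF4 the count was 57 (73.1%, 61.8% to 82.5%), compared with 31.9% of all genes. Both proteins had a peak at 48 genes (61.5%, 49.8% to 72.3%), against 22.6% of all genes. At 16 genes (20.5%, 12.2% to 31.2%) neither protein had a peak, compared with 65% of all genes. The IgG library had a peak at 4 genes (5.13%, 1.41% to 12.6%), where the share of all genes was 1.41%. For both proteins the share in the family thus lay above the background share, with the lower end of its interval also above it, and for IgG the lower end of the interval equalled the background share.

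**Figure D1:**
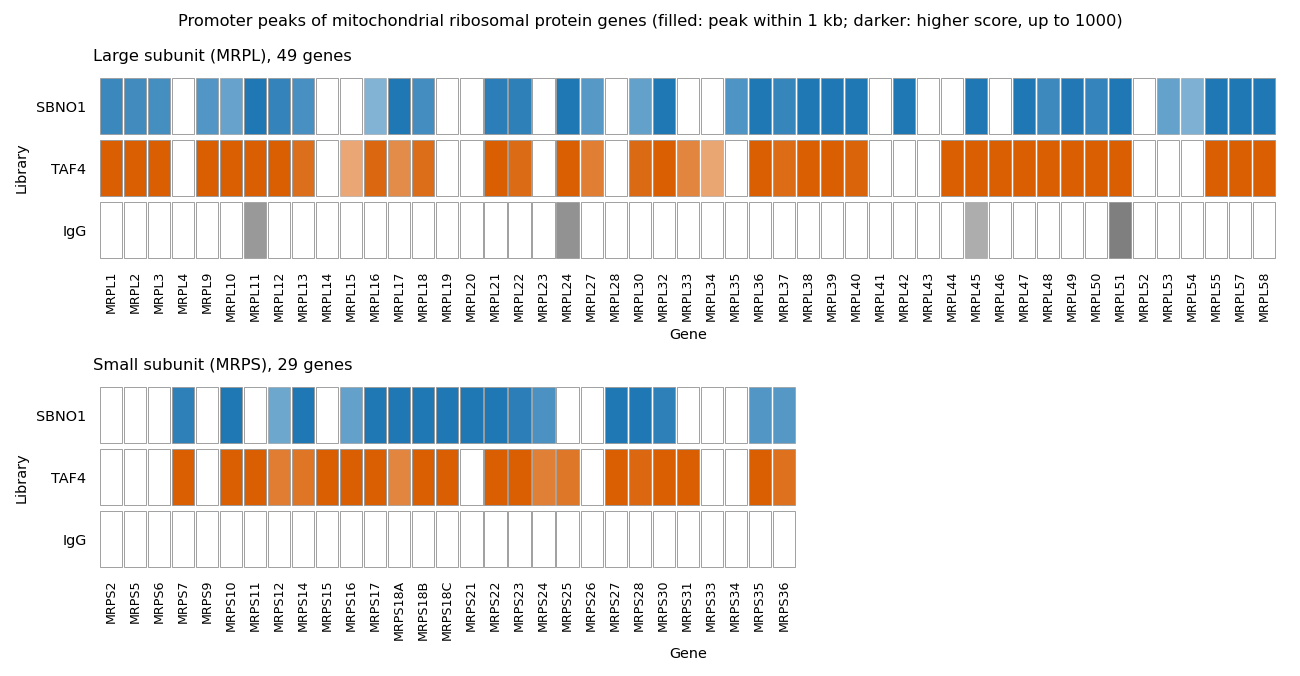
Promoter peaks of the 78 genes in the SBNO1, TAF4 and IgG libraries, with 1 column per gene, the large subunit above and the small subunit below. A filled tile stands for a peak within 1 kb of a TSS, with darker filling for a higher score of that peak, and a white tile for no peak. The 48 genes filled in both upper rows and the 16 genes without filling are spread over both subunits.

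Both subunits were covered. In the large subunit, SBNO1 peaks were found at 35 of 49 genes (71.4%, 56.7% to 83.4%) and TAF4 peaks at 36 (73.5%, 58.9% to 85.1%), with both at 31. In the small subunit, the counts were 18 of 29 for SBNO1 (62.1%, 42.3% to 79.3%) and 21 for TAF4 (72.4%, 52.8% to 87.3%), with both at 17. The intervals of the subunits overlapped for either protein. All 4 genes with an IgG peak belonged to the large subunit, and 0 of 29 small subunit genes had one, which allows a share of up to 10.3% when 3 counts of the total are taken as the limit, or 11.9% by the exact interval. MRPS18A and MRPS30 carry small subunit symbols but sit in the large subunit in structures of the mammalian mitochondrial ribosome, and both had peaks of both proteins.

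The proteins of the mitochondrial ribosome are partly inherited from the bacterial ribosome and partly specific to mitochondria. Among 47 genes whose protein has a bacterial counterpart, 32 had an SBNO1 peak (68.1%) and 35 a TAF4 peak (74.5%). Of 29 mitochondria-specific genes, 19 had an SBNO1 peak (65.5%) and 20 a TAF4 peak (69.0%). The remaining genes, MRPL55 and MRPS36, were placed in neither class and had peaks of both proteins.

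For comparison, genes of related function were counted by the same rule. Genes for cytosolic ribosomal proteins were taken as symbols starting with RPL or RPS followed by a digit, without the RPS6K kinase genes. Those with other symbols, such as FAU, were left out. Of these 87 genes, 75 (86.2%) had an SBNO1 peak, 81 (93.1%) a TAF4 peak and 3 (3.45%) an IgG peak. A further 50 genes of mitochondrial translation outside the MRPL and MRPS symbols were counted, and 25 of them (50%, 35.5% to 64.5%) had an SBNO1 peak, 35 (70.0%, 55.4% to 82.1%) a TAF4 peak and 0 an IgG peak, which allows up to 6.0% by the limit of 3 counts, or 7.11% by the exact interval. Within this list, the 5 subunits of the mitochondrial ribosome with other symbols all had a TAF4 peak, namely DAP3, PTCD3, AURKAIP1, CHCHD1 and GADD45GIP1, whereas only PTCD3 and AURKAIP1 had an SBNO1 peak. Of 17 translation factors, 8 had an SBNO1 and 12 a TAF4 peak. Of the genes for elongation and its factors, TUFM and GFM1 had both, and TSFM and GUF1 had TAF4 alone. GFM2 also had both. The initiation factor genes MTIF2 and MTIF3 had TAF4 alone. The release factor genes MTRF1 and MTRF1L had neither, whereas MTRFR, of the same protein family, and the recycling factor gene MRRF had both. Among 28 genes of ribosome assembly, ribosomal RNA modification and mitochondrial transcription, 15 had an SBNO1 and 18 a TAF4 peak. TFAM, which packages mitochondrial DNA and starts its transcription, had both peaks, and POLRMT, the mitochondrial RNA polymerase, had neither.

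**Figure D2:**
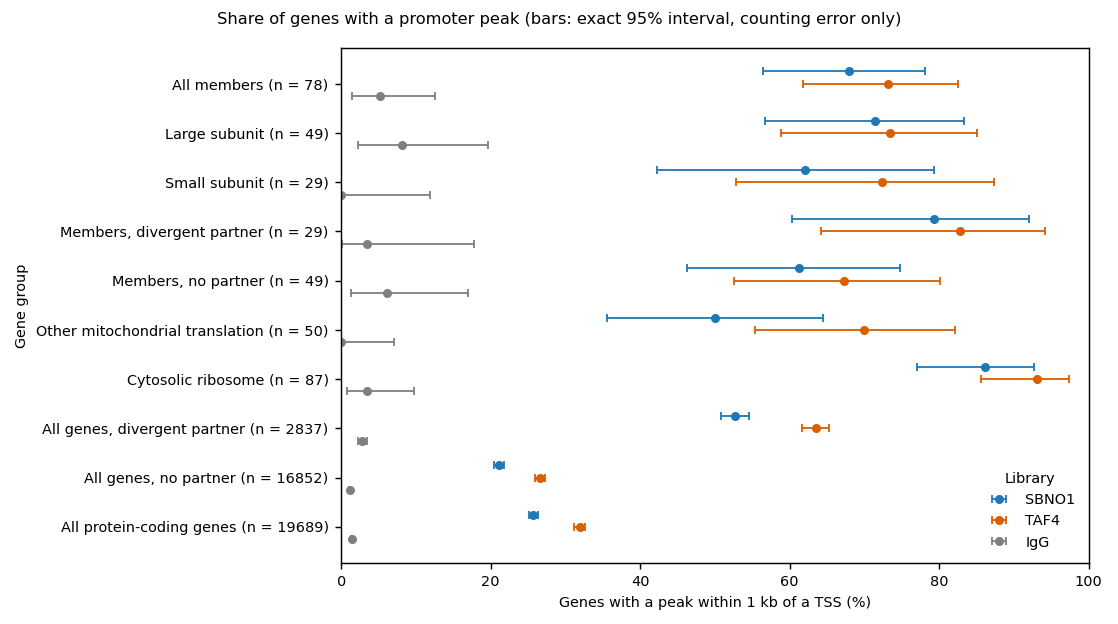
Share of genes with a promoter peak (percent, x axis) in each gene group (y axis) for the SBNO1, TAF4 and IgG libraries, where points are shares and bars exact 95% intervals for counting error. The mitochondrial ribosomal protein genes lay at 67.9% for SBNO1 and 73.1% for TAF4, above all protein-coding genes at 25.7% and 31.9% and below the cytosolic ribosome at 86.2% and 93.1%.

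Next, the overlap between both proteins was examined. Of the 53 genes with an SBNO1 peak, 90.6% (79.3% to 96.9%) also had a TAF4 peak, and the share among all genes with an SBNO1 peak was 88.0%, which lies within that interval. In the other direction, 84.2% (72.1% to 92.5%) of the 57 genes with a TAF4 peak had an SBNO1 peak, compared with 70.9% of all genes with a TAF4 peak. At each of the 48 genes with both, the peaks overlapped by 136 to 979 bp, with a median of 332 bp. The overlap took up a median of 91.0% of the SBNO1 peak and 82.7% of the TAF4 peak. In 38 of the 48 pairs it covered 50% or more of both peaks. Where a gene had several peaks in a list, the pair with the largest overlap was taken. Overlaps were not measured at other genes with both peaks, so whether they are particular to the family was not tested. The SBNO1 centre lay a median of 23.25 bp downstream of the TAF4 centre in the direction of transcription, and single genes ranged from -230.5 to 301.0 bp.

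Peaks at the family lay on the start sites. The peak nearest to a TSS covered it at 52 of 53 genes for SBNO1 and at 56 of 57 genes for TAF4 (98.1% and 98.2%), compared with 84.6% and 90.4% of all genes with a peak of these libraries. The exception for SBNO1 was MRPL18, whose peak ended 600 bp upstream of the TSS of its protein-coding transcript. This peak covered a TSS of TCP1, a subunit gene of the cytosolic chaperonin. The exception for TAF4 was MRPS11, whose nearest protein-coding TSS lay 173 bp from a peak on the TSS of MRPL46. In both cases the annotated start of the gene, outside the protein-coding transcripts, lay inside the peak, at chr6:159789812 for MRPL18 and chr15:88467453 for MRPS11. Median peak widths were 417 bp for SBNO1 and 364 bp for TAF4, compared with 420 and 418 bp at all promoter peaks of these libraries. Peak centres had a median position of -17 bp for SBNO1 and -42 bp for TAF4, where negative values are upstream, and 33 of 53 and 43 of 57 centres lay upstream. Centre positions were not measured at genes outside the family. The authors' score, a whole number capped at 1000 whose scaling is not stated, had a median of 932 at the family for SBNO1 (850 at all promoter peaks) and of 1000 for TAF4 (1000). It stood at the cap for 45.3% of the genes with an SBNO1 peak and 66.7% of those with a TAF4 peak and for 32.2% and 50.1% of all promoter peaks, and it gave no order among those.

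**Figure D3:**
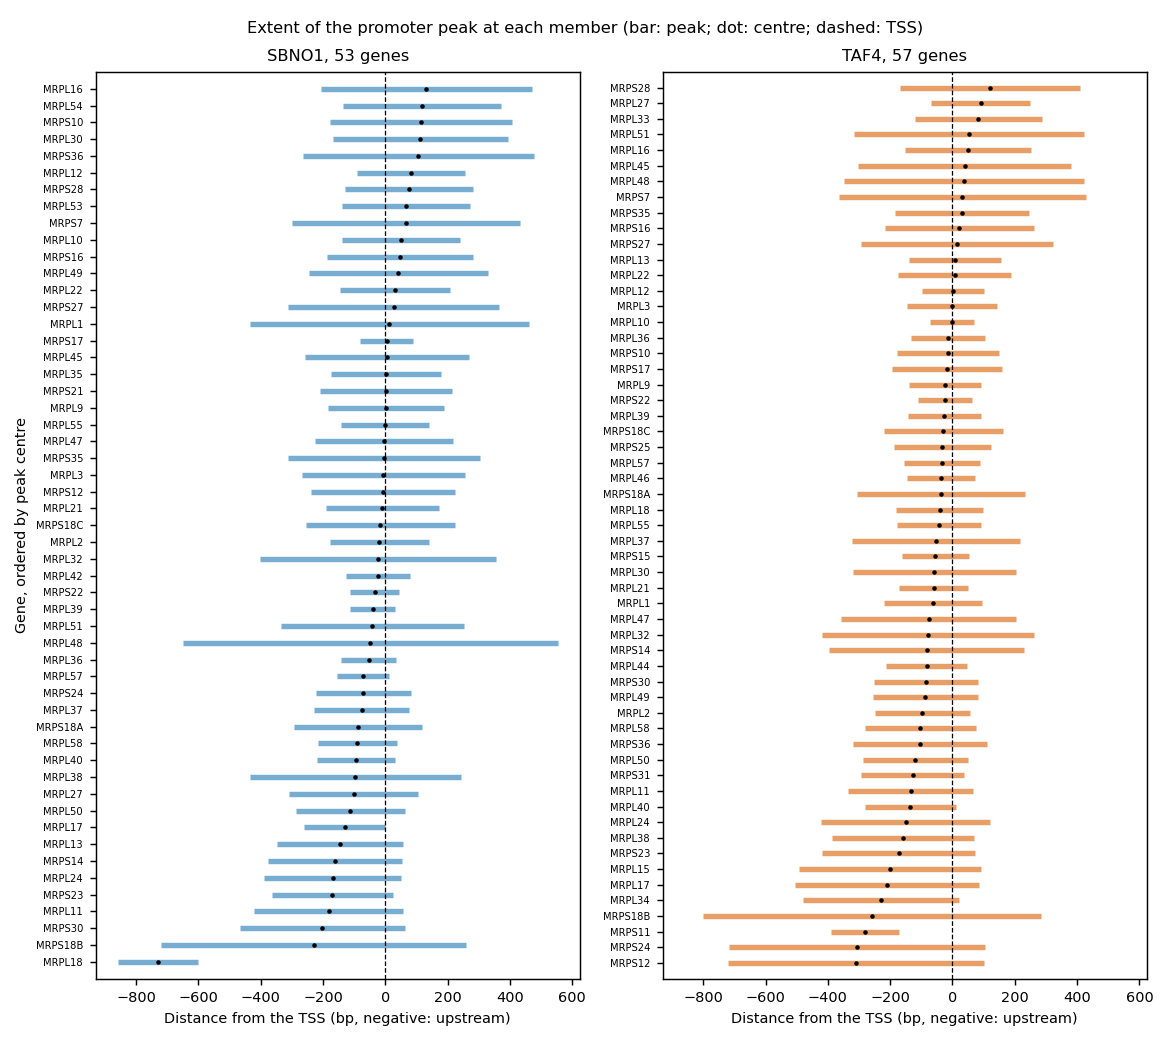
Extent of the promoter peak at each gene relative to its TSS (x axis, bp, negative values upstream) for the 53 genes with an SBNO1 peak and the 57 genes with a TAF4 peak, ordered by peak centre. Bars are peaks, dots their centres and the dashed line the TSS, which 52 of 53 SBNO1 and 56 of 57 TAF4 peaks cover.

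The genes with peaks of both proteins, no IgG peak and the highest SBNO1 scores, ordered by width where scores were equal, were MRPL32, MRPL38, MRPL47 and MRPL55 in the large subunit and MRPS18B, MRPS27, MRPS10 and MRPS18C in the small subunit. All 8 had scores of 1000 in both lists. MRPS18B, which codes for 1 of 3 related S18 proteins, had the widest of these peaks, at chr6:30617121-30618099 for SBNO1 (979 bp) and chr6:30617039-30618123 for TAF4 (1085 bp). Both of its peaks also covered the TSS of PPP1R10, a regulatory subunit gene of protein phosphatase 1. The genes of the related proteins, MRPS18A and MRPS18C, carried both peaks as well. At MRPL32, the SBNO1 peak at chr7:42931974-42932731 and the TAF4 peak at chr7:42931957-42932639 included the whole stretch printed above, and PSMA2, a gene of the proteasome, was also in reach. MRPS27, a pentatricopeptide repeat protein gene, had 2 peaks in each list. One pair lay on the TSS beside that of PTCD2, at chr5:72319976-72320655 for SBNO1 and chr5:72320018-72320634 for TAF4. The other pair lay on a downstream alternative TSS, at chr5:72308279-72308654 for SBNO1 and chr5:72307928-72308702 for TAF4, and all 4 peaks had a score of 1000.

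At 4 genes the SBNO1 and TAF4 peaks overlapped an IgG peak. MRPL11 codes for a protein of the site where translation factors bind, MRPL24 for an early binder of the large ribosomal RNA, MRPL45 for a protein near the exit tunnel that tethers the ribosome to the inner membrane, and MRPL51 for a mitochondria-specific subunit. The IgG peak scored 726 at MRPL11, 798 at MRPL24, 519 at MRPL45 and 1000 at MRPL51, while SBNO1 and TAF4 scored 1000 at each. All 4 IgG peaks covered the TSS and were 259 to 426 bp wide. Scores of different lists have no stated common scale and were not compared further. MRPL51 had a further SBNO1 and a further TAF4 peak that overlapped no IgG peak, at chr12:6493816-6494438 and chr12:6493726-6494269. After removal of all peaks that overlapped IgG, both proteins had a peak at 45 genes (57.7%), compared with 21.4% of all genes.

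A peak of only 1 of the proteins was present at 14 genes. SBNO1 alone was found at 5 (6.41%, 2.11% to 14.3%, compared with 3.08% of all genes), namely MRPL35, MRPL42, MRPL53, MRPL54 and MRPS21. Its score was 716 at MRPL35, 1000 at MRPL42, 587 at MRPL53, 442 at MRPL54 and 1000 at MRPS21, and the nearest TAF4 peak was 3684 bp away at MRPL35 and 135394 bp away at MRPL54. TAF4 alone was found at 9 (11.5%, 5.41% to 20.8%, compared with 9.29% of all genes), namely MRPL15, MRPL33, MRPL34, MRPL44, MRPL46, MRPS11, MRPS15, MRPS25 and MRPS31. Its score was lowest at MRPL15 (394) and MRPL34 (407), was 686 at MRPL33 and 799 at MRPS25, and was 1000 at the other 5 genes. The nearest SBNO1 peak was 3404 bp away at MRPL34 and 266643 bp away at MRPS31. MRPL46 and MRPS11 form a head-to-head pair within the family with 318 bp between their TSS, and they shared a single TAF4 peak at chr15:88467319-88467535.

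Divergent promoters were considered next. A partner was present for 29 of 78 genes (37.2%), and for 2837 (14.4%) of all protein-coding genes. The distance between both TSS ranged from 13 bp, between MRPL27 and EME1, to 990 bp, between MRPL54 and APBA3, with a median of 134 bp, and was within 300 bp for 23 genes. Apart from the pair MRPL46 and MRPS11, there were 27 partner genes outside the family. Several of these also act in mitochondria. NDUFS6, partner of MRPL36, and NDUFB5, partner of MRPL47, encode subunits of respiratory complex I. SARS2, partner of MRPS12, encodes the mitochondrial seryl-tRNA synthetase, PTCD2, partner of MRPS27, a protein of mitochondrial RNA processing, and TWNK, partner of MRPL43, the helicase that replicates mitochondrial DNA. FAU, partner of MRPL49, encodes a cytosolic ribosomal protein. The other pairs were MRPL2 with KLC4, MRPL9 with OAZ3, MRPL10 with LRRC46, MRPL13 with MTBP, MRPL18 with TCP1, MRPL21 with IGHMBP2, MRPL27 with EME1, MRPL30 with MITD1, MRPL37 with CYB5RL, MRPL40 with HIRA, MRPL50 with ZNF189, MRPL54 with APBA3, MRPL57 with SKA3, MRPS7 with GGA3 and MRPS18B with PPP1R10, beside those shown with their sequences.

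Of the 29 genes with a partner, 23 (79.3%, 60.3% to 92%) had an SBNO1 peak, and the share among all genes with a partner was 52.7%. For TAF4, 24 (82.8%, 64.2% to 94.2%) had a peak, compared with 63.5% of all genes with a partner. Of the 49 genes without a partner, 30 (61.2%, 46.2% to 74.8%) had an SBNO1 peak and 33 (67.3%, 52.5% to 80.1%) a TAF4 peak, whereas the shares among all genes without a partner were 21.1% and 26.6%. Within the family the intervals of genes with and without a partner overlapped for either protein. The shares in the family were above those of all genes in both classes.

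A peak between 2 start sites cannot be given to one of the genes. At each of the 23 genes with a partner and an SBNO1 peak, and each of the 24 with a TAF4 peak, the partner had a peak of the same library in reach as well. With a reach of 1 kb and a median of 134 bp between both TSS, this largely follows from the counting rule. The peak covered both TSS at 19 of 23 genes for SBNO1 and 18 of 24 for TAF4. The same counts were not made for all genes with a partner. By the TSS nearest to the peak centre, the SBNO1 peak was closer to the ribosomal protein gene in 18 cases and to the partner in 5, and the TAF4 peak in 18 and 6 cases, where MRPL46 and MRPS11 count for each other. At genes with 2 peaks in a list, only the peak nearest to a TSS of the ribosomal protein gene entered this count. MRPL36 and MRPL18 were therefore counted as closer for TAF4, although their second TAF4 peaks were nearest to the partners NDUFS6 and TCP1. Likewise, MRPL51 was counted as closer for both proteins, although its second SBNO1 and second TAF4 peaks were nearest to NCAPD2. For MRPL47 and NDUFB5, the SBNO1 peak was closer to MRPL47 and the TAF4 peak to NDUFB5, and for MRPL57 and SKA3 the SBNO1 peak was closer to SKA3 and the TAF4 peak to MRPL57. At MRPL36, TAF4 had a peak with a score of 1000 on a start site of MRPL36 alone, at chr5:1799789-1800029, and a peak with a score of 529 between MRPL36 and NDUFS6, at chr5:1801331-1801802. The SBNO1 peak was found only at the latter place, at chr5:1801331-1801508, with a score of 1000. When each peak counted only for the gene of its nearest TSS, SBNO1 peaks remained at 47 genes, TAF4 peaks at 51 and both at 37, compared with 18% of all genes for both. The 11 genes that no longer had both were MRPL12, MRPL13, MRPL18, MRPL21, MRPL36, MRPL37, MRPL47, MRPL49, MRPL50, MRPL57 and MRPS12. All but MRPL12 had a divergent partner, and MRPL12 shared its start region with the read-through gene ENSG00000262660.

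The 16 genes with neither peak were then described. They were MRPL4, MRPL14, MRPL19, MRPL20, MRPL23, MRPL28, MRPL41, MRPL43 and MRPL52 in the large subunit and MRPS2, MRPS5, MRPS6, MRPS9, MRPS26, MRPS33 and MRPS34 in the small subunit. MRPL4 and MRPL23 code for proteins at the exit tunnel, MRPL14 and MRPL19 for proteins that face the small subunit, and MRPS5 for a protein of the messenger RNA channel. An SBNO1 peak was nearest at MRPL20, 7367 bp away, and farthest at MRPS33, 722807 bp away. For TAF4 the distance ranged from 7410 bp at MRPL20 to 778394 bp at MRPL19. Widening the reach to 3000 bp added none of them.

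The base composition of their promoters was compared with that of the other members. Over 300 bp, with 250 bp before and 50 bp from the TSS of the canonical transcript on, the 16 promoters had a median GC content of 71.5% (interquartile range 65.0% to 77.6%). The 48 promoters with both peaks had a median of 58.8% (57% to 63.8%), and the 14 promoters with 1 of the peaks 57.5% (51.8% to 59.0%). The ranges overlapped, as MRPL19 (52.3%) and MRPL52 (55.0%) were among the promoters without peaks. Among all protein-coding genes the order was different, with 62.7% for genes with neither peak and 64.0% for genes with both. The ratio of observed to expected CpG had medians of 0.913 in family promoters with neither peak and 0.862 in those with both, and of 0.886 in the whole family against 0.777 in all genes. To compare at like base composition, genes with a GC content of 57% to 65.6%, the interquartile range of the family, were counted. In this band, 29 of 39 family genes (74.4%) had an SBNO1 peak and 34 (87.2%) a TAF4 peak, compared with 35.2% and 41.8% of 5365 genes of all kinds. An IgG peak was present at 3 of the 39 (7.69%) and at 2.31% of all genes in the band.

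The surroundings of the genes were also counted. Within 1 Mb of the 16 genes with neither peak, a median of 13.5% (interquartile range 7.23% to 21.7%) of the other protein-coding genes had an SBNO1 peak, compared with 34.1% (28.6% to 45.9%) within 1 Mb of the 48 genes with both peaks. For TAF4 the medians were 18.6% (14% to 31.6%) and 43.3% (34.1% to 52.9%). Neighbours were not counted around genes outside the family, so whether this difference is particular to the family was not tested. Divergent partners were kept among the neighbours, so a peak shared by a member and its partner also entered these shares. Of the 48 genes with both peaks, 22 had a divergent partner, which in each case had both peaks too. The partners of MRPL14, MRPL43, MRPL52 and MRPS2 had neither. Members close to each other also had neighbours in common. How far this changed the medians was not tested. Around MRPL28, 0 of 58 neighbouring genes had an SBNO1 peak, which allows up to 5.17% by the limit of 3 counts, or 6.16% by the exact interval. MRPL43 was at the other end of this group, with SBNO1 peaks at 11 of 30 neighbouring genes (36.7%). By chromosome, the family had peaks of both proteins at 8 of 8 genes on chromosome 17, where 35.4% of all genes had an SBNO1 and 39.8% a TAF4 peak, and at 5 of 5 on chromosome 5, where the shares of all genes were 40.4% and 43.9%. Neither protein had a peak at the 2 members on chromosome 16, where the shares were 8.19% and 18.9%. Other chromosomes went the other way. Neither protein had a peak at the 1 member on chromosome 14 (shares 35.4% and 43.5%) or the 1 on chromosome 20 (31.7% and 35.8%). Both proteins had peaks at 2 of 2 members on chromosome 4 (17.7% and 25.4%) and at 5 of 6 on chromosome 6 (20.3% and 28.1%). On chromosome 15, SBNO1 had a peak at 0 of 2 members and TAF4 at both, with shares of all genes of 21.9% and 30.1%. Copy number, chromatin state and expression of these regions were not measured in these files, and their part in the peak calls was not tested.

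**Figure D4:**
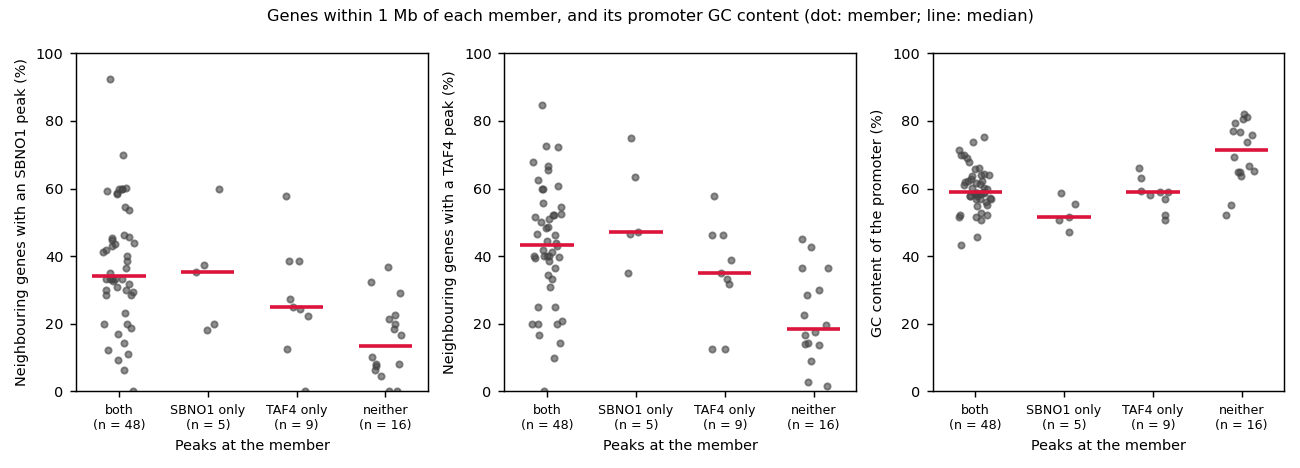
Share of other protein-coding genes within 1 Mb of each gene that have an SBNO1 peak or a TAF4 peak, and GC content of the gene's promoter (y axes, percent), by which peaks the gene has (x axis). Dots are genes and lines medians, and divergent partners are among the other genes. For genes with both and with neither peak, the medians were 34.1% and 13.5% for SBNO1, 43.3% and 18.6% for TAF4, and 58.8% and 71.5% for GC content.

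Finally, motif matches were counted in the 300 bp promoters of the family and of all protein-coding genes on both strands, with overlapping matches of different motifs allowed. ETS factors and YY1 are activators at many promoters of mitochondrial protein genes, and NRF1 is a regulator of genes for respiration. The ETS letters were found in 60.3% (48.5% to 71.2%) of the family promoters, compared with 22.7% of all promoters and 37.5% of promoters of all genes with both peaks. The YY1 letters were found in 26.9% (17.5% to 38.2%), compared with 4.59% and 9.51%. For NRF1 the share was 19.2% (11.2% to 29.7%), compared with 11% and 15.9%. SP/KLF matches were as frequent in the family (60.3%, 48.5% to 71.2%) as in all promoters (61.6%, within that interval). NFY matches were found in 28.2% (18.6% to 39.5%) of the family and 36.1% of all promoters, the TATA box in 5.13% and 9.65%, and AP-1 in 1.28% and 5.45%. Matches describe the letters in this window and do not show binding.

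Within the family, motif shares were set beside the peaks. ETS matches were found in 64.6% (49.5% to 77.8%) of the 48 promoters with both peaks and in 50% (24.7% to 75.3%) of the 16 with neither. For YY1 the shares were 33.3% (20.4% to 48.4%) and 18.8% (4.05% to 45.6%), and for NRF1 18.8% (8.95% to 32.6%) and 25% (7.27% to 52.4%). SP/KLF matches were found in 58.3% (43.2% to 72.4%) and 81.2% (54.4% to 96.0%). The intervals overlapped for each of these motifs. MRPL20, MRPL23, MRPL28, MRPL43, MRPL52, MRPS26, MRPS33 and MRPS34 held an ETS match without a peak of either protein.

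**Figure D5:**
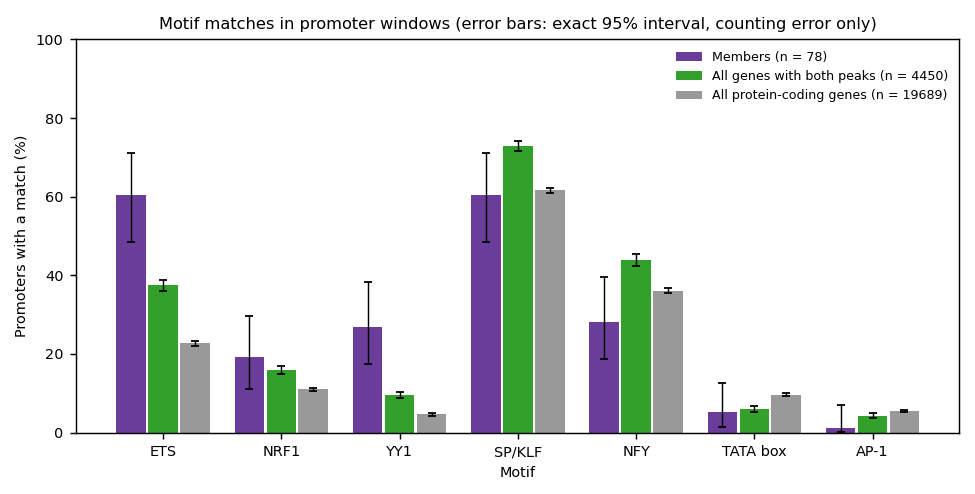
Share of promoters (y axis, percent) with a match to each of 7 motifs (x axis) in the 78 family promoters, in promoters of all 4450 genes with both peaks and in all 19689 protein-coding promoters, with exact 95% intervals for counting error. ETS (60.3%) and YY1 (26.9%) matches were more frequent in the family than in all promoters (22.7% and 4.59%), and SP/KLF was about equal (60.3% and 61.6%).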

How the data were processed

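Chromatin of HuCCT1 cells was prepared with an enzymatic kit. According to the methods of the study, at least 3 biological replicates per antibody were pooled and read as single-end reads, which were trimmed with ktrim and aligned to GRCh38.p14 with bowtie2 (Bowtie2 2.5.4 in the submitters' processing notes). For peak calling the methods name normR, whereas the processing notes name Genrich 0.6.1, and which of them made the lists is not stated. Whether the study filtered these lists further before its own promoter counts is not stated either, so the counts here describe the lists as deposited. The threshold, the handling of duplicate reads and the use of IgG as a control in the calls were not given in the sources used here. The deposited score of each peak is the authors' whole number with a cap of 1000. It was used only to order peaks within a list and to keep peaks at or above the median score. The lists hold no read counts, so depth is unknown.

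From the 3 peak lists, 1 per antibody, peak edges were set against the TSS of protein-coding transcripts in GENCODE 44. All peaks lay within the chromosome lengths of GRCh38, and coordinates are 1-based. Promoter sequences were read from that genome with pysam. Intervals are exact Clopper-Pearson intervals from scipy. Partner genes, overlaps and motifs were counted as the report describes, and the functions were tested on simulated data. No p-values were computed. Named genes were all members with an IgG peak, with 1 or none of the SBNO1 and TAF4 peaks, the 4 highest-scoring of each subunit with both, and all divergent partners. The members, gene lists and comparisons were chosen with earlier results of these data known. The classes by bacterial counterpart and the lists of mitochondrial translation genes were written from general knowledge.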

Additional observations from a re-analysis of the deposited data

How the results depend on the processing

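Of 75 values obtained under alternative settings, 70 stayed within the limits set and 5 did not. The limit was 1.5 times the main count or the interval of the main share. For the neighbourhood medians it was the interquartile range over genes. When only peaks at or above the median score of their list were kept, SBNO1 peaks were found at 34 members (43.6%, compared with 13.1% of all genes), IgG peaks at 1 (1.28%, compared with 0.35%) and both SBNO1 and TAF4 peaks at 26 (33.3%, compared with 9.21% of all genes). With 1 TSS per gene, 17 members instead of 29 had a divergent partner. In a window of 500 bp around the TSS, 71.8% of member promoters and 69.9% of all promoters held an SP/KLF match. The count of members with both peaks otherwise ranged from 37, with each peak given to its nearest TSS, to 48. The choices of other neighbourhood sizes and of partners with a TSS on either side were made after seeing the data. No paired analysis was possible because there was a single library for every antibody, without any test. Without replicates and read counts, a missing peak cannot be told from one below the detection limit of the library, and the spread between experiments is unknown.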
